A study of Mus musculus with 16 samples.

Results

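Grik3 encodes GluK3 (GluR7), a pore-forming subunit of kainate receptors, and it is 1 of the 43346 genes in the deposited RNA-seq table of lung endothelial cells (ECs). It was selected on its own counts and fold changes in these 16 libraries, where its level after bleomycin in young mice was far below that of the other groups. Its group levels and fold changes are therefore given as a description, with no p-value. ECs were sorted from the lungs of FVB mice that carried a Col1a1-GFP transgene, as cells positive for CD31 and negative for CD45, EpCAM and GFP. The GFP reporter marks collagen-expressing cells, so the gate leaves out labelled fibroblasts, leukocytes and epithelium. Bleomycin, which damages the lung and leads to scarring, or PBS (sham) was delivered into the trachea, and cells were taken about a month later. The labels give an age of 2 months for young and of 18 months for aged mice, without saying whether that is at delivery or at harvest. The groups are Young Sham (n = 5, libraries 21 to 25), Young Bleo (n = 4, libraries 17 to 20), Aged Sham (n = 3, libraries 13 to 15) and Aged Bleo (n = 4, libraries 1, 2, 3 and 5). By the study's methods the transgene was common to all groups, so sham mice carried it too.

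Kainate receptors are tetrameric cation channels opened by glutamate, best known from neurons, where they sit on both sides of synapses and tune transmitter release. Grik1, Grik2 and Grik3 encode subunits that can form channels alone, whereas Grik4 and Grik5 encode high-affinity subunits that need one of the former to reach the membrane. Neto1 and Neto2 are auxiliary subunits that alter the gating of these channels.

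On mm10 the gene lies on the forward strand at chr4:125490700-125714173. In the GENCODE M21 annotation (GRCm38) it has 16 exons with a spliced length of 8973 bases, of which 2757 are coding sequence including the stop codon, 131 are 5′ UTR and 6085 are 3′ UTR. The 3′ UTR thus makes up 67.8% of the length over which its reads were counted. No exon of another gene overlaps its exons, although the processed pseudogene Ftl2 and the microRNA gene Mir692-2 lie wholly inside the gene. Of the 8924 stretches of 50 bases along the transcript, 41 (0.459%) also occur in transcripts of other genes, and none of these is another kainate receptor gene. Transcripts of its paralogs thus share no stretch of this length with it.

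The window just before the annotated start, chr4:125490446-125490699 (RefSeq, GRCm38.p6, forward strand), is shown because the study is about the endothelial transcription factor ERG, whose family binds the letters GGAA. Capitals mark the matches to GGAA on either strand.

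Grik3 promoter: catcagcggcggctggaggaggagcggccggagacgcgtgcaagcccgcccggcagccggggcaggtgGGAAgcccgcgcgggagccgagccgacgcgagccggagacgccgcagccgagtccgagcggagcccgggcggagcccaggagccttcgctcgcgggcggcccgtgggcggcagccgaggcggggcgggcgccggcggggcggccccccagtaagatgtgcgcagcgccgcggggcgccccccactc

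GGAA occurs 1 time in this window, 186 bases before the start on the forward strand. Across promoter windows of the same length, 93.6% of 32851 hold it on one strand or the other. The longer string AGGAAG, which contains GGAA, has 0 matches here and is found in 29.9% of windows. The GC box GGGCGG has 6 matches, none overlapping the GGAA match, and 33.1% of windows hold at least 1. The G and C content is 81.5% against a median of 52.4% over all windows. These are counts of letters and say nothing of binding.

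The libraries held between 20.9 and 71.0 mega-counts each, and replicates of a group differed by more than sampling noise in every pair. The 6 pan-endothelial markers, such as Pecam1 and Cdh5, summed to 355285 to 414079 normalized counts in Young Sham and 351875 to 361069 in Aged Sham. They summed to 244617 to 319690 in Young Bleo and 234027 to 322608 in Aged Bleo, both below all sham libraries, and the sum had r of 0.68 with Grik3 (0.91 without Young Bleo). That r is Pearson's, on log2(normalized count + 1). The members split, with 3 at r above 0 and 3 below (-0.67 to 0.76). In Young Bleo against Young Sham DESeq2 called Cldn5 lower and Erg and Emcn higher, beside 13.9% of all genes tested called in either direction. The study's methods describe mice of both sexes, whereas the Y-linked gene Ddx3y had at least 1359 normalized counts, and Xist at most 39.0, in each library.

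Grik3 was present in every sham library of either age, nearly absent from every Young Bleo library, and at intermediate levels in Aged Bleo. In Young Sham its DESeq2-normalized counts (read counts scaled by a size factor per library) were 213, 319, 242, 446 and 171 in libraries 21 to 25. In Aged Sham they were 246, 231 and 237 in libraries 13 to 15. The 3 Aged Sham values lie inside the Young Sham range and are closer to one another.

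In Young Bleo the normalized counts were 6.93, 0, 5.51 and 5.41 in libraries 17 to 20. The raw reads behind them were 8, 0, 5 and 7, so library 18 had no read of Grik3, which allows up to 3.12 normalized counts at a floor of 3 reads. Over the group, 20 reads were counted among 180 mega-counts, with a 95% Poisson interval of 12.2 to 30.9 that covers counting error only. The Young Sham libraries together held 1287 reads among 206 mega-counts.

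In Aged Bleo the normalized counts were 37.6, 75.2, 184 and 136 in libraries 1, 2, 3 and 5, from 48, 102, 307 and 168 raw reads. Library 3 lay above the lowest Young Sham library, whereas libraries 1, 2 and 5 lay below every sham library. Even library 1 was above all 4 Young Bleo libraries.

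**Figure D1:**
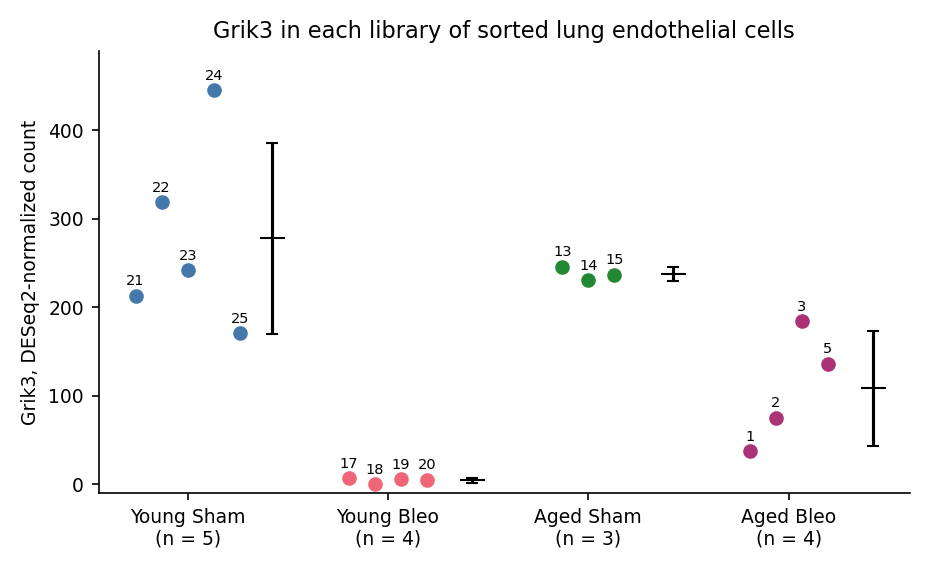
Each point is the DESeq2-normalized count of Grik3 in one library, labelled with its replicate number, and the black bar at the right of each group is the mean with its SD. The Young Bleo libraries sit between 0 and 6.93, the Aged Bleo libraries between 37.6 and 184, and the sham libraries of both ages between 171 and 446.

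From the highest to the lowest group, the mean normalized count was 278 ± 108 for Young Sham (SD, n = 5), then 238 ± 7.56 for Aged Sham (SD, n = 3), then 108 ± 64.9 for Aged Bleo (SD, n = 4), and 4.46 ± 3.06 for Young Bleo (SD, n = 4). In this order the first neighbours, Young Sham and Aged Sham, overlap and their means are closer than the Young Sham SD. Aged Sham and Aged Bleo do not overlap, and neither do Aged Bleo and Young Bleo. Aged Bleo and Young Sham overlap through library 3.

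In young mice the level after bleomycin was 62.3-fold below that of sham ECs, a log2 fold change of -5.94 (SE 0.545). Of the 13760 genes tested whose mean normalized count reached 50, none had a lower log2 fold change in this comparison, and this rank is among the values for which the gene was chosen. Young Bleo libraries all lay below all Young Sham libraries for 7.17% of genes tested. In aged mice the log2 fold change from sham to bleomycin was -1.13 (SE 0.502), a 2.20-fold difference of the means. Aged Bleo lay wholly below Aged Sham for 6.14% of genes tested.

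Between the bleomycin groups, Grik3 was 24.3-fold higher in aged than in young mice, with a log2 fold change of 4.58 (SE 0.566), the 4th highest of the same 13760 genes. Groups that do not overlap in this direction made up 2.8% of genes tested. Against Young Sham, the Aged Bleo level differed by -1.36 (SE 0.440) on the log2 scale and the Aged Sham level by -0.23 (SE 0.478). The aged response minus the young response was 4.80 (SE 0.741) on the log2 scale. These contrasts share groups and are not independent of one another.

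The level after injury can be read beside the markers of the capillary cell types. Lung capillaries hold general capillary cells, which act as progenitors, and aerocytes, large cells specialised for gas exchange that express Car4, Ednrb and Apln. In bulk RNA, fewer cells of a type and less RNA per cell cannot be told apart. All 7 aerocyte markers examined correlated positively with Grik3 over the 16 libraries (Pearson r of log2(normalized count + 1), 0.73 to 0.84), and all 6 general capillary markers correlated negatively (-0.64 to -0.25). The 6 arterial markers and the 5 lymphatic markers were likewise negative throughout. These coefficients are descriptions over libraries that share 4 group means.

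In Young Bleo against Young Sham all 7 aerocyte markers were lower by DESeq2, against 6.35% of all genes tested being called lower, with a median log2 fold change of -1.98 beside 0.01 over all genes. Car4, a carbonic anhydrase, fell by 1.98 (SE 0.445, adjusted p = 0.000245, DESeq2) and Ednrb, the endothelin receptor B, fell by 2.58 (SE 0.693, adjusted p = 0.00304, DESeq2). Apln, the ligand of the apelin receptor, fell by 1.90 (SE 0.338, adjusted p = 1.86e-06, DESeq2). The edgeR adjusted p-values of the 7 markers lay between 0.00487 and 0.046. In Aged Bleo against Young Sham, 3 of the 7 were called lower (Car4, Apln and Kdr), where 3.14% of all genes tested were, and their edgeR adjusted p-values were 0.102, 0.0757 and 0.09. All 7 had an unadjusted p under 0.05 (DESeq2), and the median log2 fold change was -1.26. Against Aged Sham, their own control, 0 of the 7 were called in Aged Bleo by DESeq2 or by edgeR, beside 5.85% of all genes tested, while 3 had an unadjusted p under 0.05 (DESeq2) and the median log2 fold change was -1.04. Between Aged Bleo and Young Bleo 0 of the 7 were called by DESeq2 or by edgeR and 1 had an unadjusted p under 0.05 (DESeq2), beside 0.99% of all genes called by DESeq2. Their median log2 difference was 0.81, beside 0.02 over all genes.

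The summed normalized counts of these 7 markers were 463013 to 567609 in Young Sham and 350104 to 529280 in Aged Sham. In Aged Bleo they were 65463, 107203, 360679 and 285505 in libraries 1, 2, 3 and 5. The order of these 4 libraries by aerocyte markers is also their order by Grik3. In Young Bleo the sums were 65097, 85721, 110237 and 273753 in libraries 17 to 20, of which library 20 held the most while its Grik3 count stayed at 5.41.

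**Figure D2:**
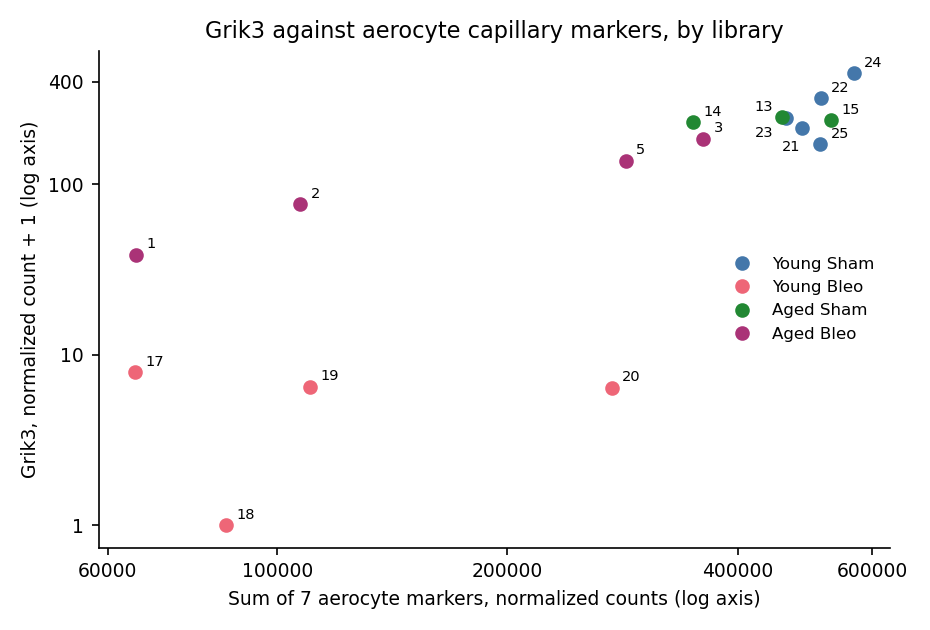
Each point is one library, with the sum of 7 aerocyte markers in normalized counts on the horizontal log axis and the normalized count of Grik3 plus 1 on the vertical log axis. The Aged Bleo libraries 1, 2, 5 and 3 rise towards the sham libraries, whereas the Young Bleo libraries stay at or under 6.93 counts over sums from 65097 to 273753.

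Libraries with like sums can be set side by side. Young Bleo 17 and Aged Bleo 1 had sums of 65097 and 65463, and Grik3 counts of 6.93 and 37.6. Young Bleo 19 and Aged Bleo 2 had sums of 110237 and 107203, and Grik3 counts of 5.51 and 75.2. Young Bleo 20 and Aged Bleo 5 had sums of 273753 and 285505, and Grik3 counts of 5.41 and 136. Young Bleo 18, with a sum of 85721 and a Grik3 count of 0, had no such partner. As every Aged Bleo library lies above every Young Bleo library in Grik3, any pairing gives this order, and the pairs show sizes only.

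Grik3 was also expressed per mega-count of the aerocyte markers. This ratio was 540 ± 173 for Young Sham (SD, n = 5), 548 ± 106 for Aged Sham (SD, n = 3), 566 ± 98.9 for Aged Bleo (SD, n = 4) and 44.1 ± 46.4 for Young Bleo (SD, n = 4). The first 3 groups differ by less than their SDs. The Young Bleo libraries reached 106, 0, 49.98 and 19.8, all below the lowest value of any other library, 334 in Young Sham 25. The ratio was 12.3-fold lower in Young Bleo than in Young Sham, 9.20-fold lower without Young Bleo 18 and 23.2-fold lower without Young Bleo 17, the lowest and highest values on leaving out single libraries, and 12.4-fold lower when Car4, the most abundant of the markers, was left out of the sum. It was chosen after the levels were seen and is given without a test. Without the Young Bleo libraries the r between Grik3 and the summed markers was 0.94 over 12 libraries, and with them it was 0.78 over 16.

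Markers of cells outside the gate moved as well. All 6 macrophage markers correlated negatively with Grik3 (-0.65 to -0.25), and their sum had r of -0.50 (-0.85 without Young Bleo). Their summed level was 209 to 892 normalized counts in Young Sham, 554 to 4462 in Aged Sham, 1741 to 8672 in Young Bleo and 4964 to 39119 in Aged Bleo. Against Young Sham, DESeq2 called 4 of the 6 higher in Young Bleo and 4 in Aged Bleo (4 by edgeR in each). Of all genes tested, 13.9% and 9.73% were called by DESeq2 in either direction. All 6 mural markers had r above 0 (0.0033 to 0.49), and their sum had r of 0.42 (0.81 without Young Bleo). It was 6892 to 17251 in Young Sham, 3932 to 7427 in Aged Sham, 2601 to 6363 in Young Bleo and 1737 to 2892 in Aged Bleo, with Aged Bleo below all sham libraries and Young Bleo overlapping Aged Sham. Against Young Sham, DESeq2 called 3 of the 6 lower in Young Bleo (1 by edgeR), beside 6.35% of all genes tested, and 5 in Aged Bleo (5 by edgeR), beside 3.14%. The 3 mesothelial markers summed to 0.978 to 231 in Young Sham, 701 to 2516 in Aged Sham, 1035 to 3279 in Young Bleo and 77.4 to 1163 in Aged Bleo. Against Young Sham, DESeq2 and edgeR each called all 3 higher in Young Bleo, 2 higher in Aged Sham and 2 higher in Aged Bleo, where 13.9%, 3.36% and 9.73% of all genes tested were called by DESeq2 in either direction.

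The 5 fibroblast markers summed to 4090 to 8667 normalized counts in Young Sham, 4553 to 8208 in Aged Sham, 5209 to 9285 in Young Bleo and 2116 to 4132 in Aged Bleo. Against Young Sham, 3 of them were called lower in Aged Bleo by DESeq2 (2 by edgeR) beside 3.14% of all genes tested, and 0 in Young Bleo by either tool (6.35% of all genes by DESeq2), where 0 also had an unadjusted p under 0.05 (DESeq2). Their sum had r of -0.16 with Grik3 (0.54 without Young Bleo). The epithelial sums overlapped in all 4 groups, at 5849 to 44563.

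The 8 neural and Schwann cell markers summed to 781 to 1267 normalized counts in Young Sham, 972 to 1249 in Aged Sham, 271 to 454 in Young Bleo and 114 to 707 in Aged Bleo, so that every bleomycin library lay below every sham library. The sum had r of 0.73 with Grik3 (0.91 without Young Bleo). Most of it came from Rbfox3, a neuronal RNA-binding protein, the only one of the 8 to average 50 normalized counts or more, with r of 0.72. In Young Bleo against Young Sham, DESeq2 called 1 of the 8 lower (Rbfox3, also by edgeR), beside 6.35% of all genes tested. It called 2 higher (S100b and Tubb3, neither by edgeR), beside 13.9% of all genes tested called in either direction. These 2 averaged 23.9 and 23.8 normalized counts. The other 5 averaged 1.43 or fewer.

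The part of all these cells in the level of Grik3 was not tested.

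**Figure D3:**
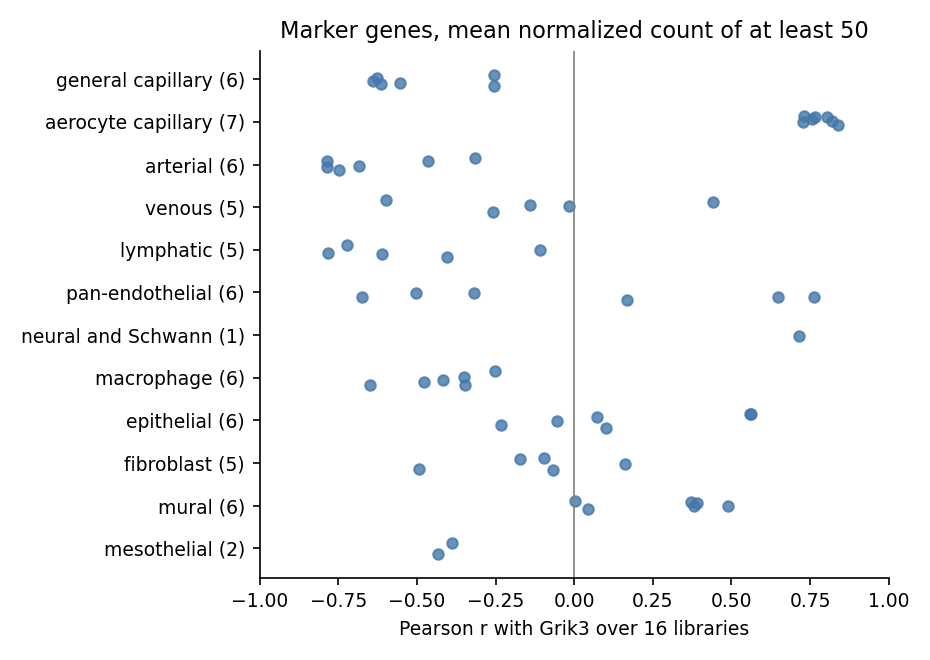
Each point is one marker gene averaging 50 normalized counts or more, placed by its Pearson r with Grik3 over 16 libraries, with the number of genes of each list in parentheses. The 7 aerocyte markers lie between 0.73 and 0.84, while the general capillary, arterial, lymphatic and macrophage markers all lie below 0.

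Among the other pore-forming kainate subunits, Grik5 was the one with a sizeable level, Grik1 had 0 counts in all 16 libraries, and Grik2 and Grik4 were near 0. Levels between genes are compared in FPKM, which divides by gene length. In Young Sham the FPKM was 0.449 ± 0.224 for Grik5 and 0.305 ± 0.110 for Grik3 (SD, n = 5), a difference larger than the SD of Grik3 and smaller than that of Grik5. In Young Bleo it was 0.661 ± 0.191 for Grik5 and 0.00502 ± 0.00343 for Grik3 (SD, n = 4). All of these are low levels on the FPKM scale.

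Grik5 had normalized counts of 212, 184, 57.4, 130 and 291 in Young Sham and 223, 348, 277 and 165 in Young Bleo. In Aged Sham the Grik5 counts were 152, 183 and 99.6, and in Aged Bleo they were 206, 226, 135 and 101. The groups overlap in every comparison, and no contrast of Grik5 was called, with adjusted p-values of 0.427 to 0.948 (DESeq2) in the 5 pairwise comparisons. For Young Bleo against Young Sham its log2 difference was 0.53, with a 95% interval of -0.25 to 1.30.

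Grik2 reached at most 52.8 normalized counts in any library and had group means of 10.5 and 12.6 in the young and aged sham groups and of 20.2 and 34.0 after bleomycin. Grik4 was detected in 1 library, Young Sham 24, at 18.7 normalized counts. Of the auxiliary subunits, Neto1 had 0 counts in all libraries. Neto2 had normalized counts of 343, 335, 269, 325 and 151 in Young Sham, and of 116, 195 and 137 in Aged Sham.

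Between the sham groups Neto2 was lower in aged mice, with a log2 fold change of -0.92 (SE 0.279 and adjusted p = 0.0317, DESeq2), where 3.36% of all genes tested were called. Its edgeR adjusted p was 0.144. The call was lost when Young Sham 21, 22, 23 or 24 or Aged Sham 13 or 15 was left out, with adjusted p-values of 0.0542 to 0.173. After bleomycin Neto2 had normalized counts of 192 to 302 in Young Bleo and 231 to 284 in Aged Bleo, and neither group was called against Young Sham. Aged Bleo lay above Aged Sham (116 to 195), a difference that neither DESeq2 nor edgeR called, beside 5.85% of all genes called by DESeq2.

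**Figure D4:**
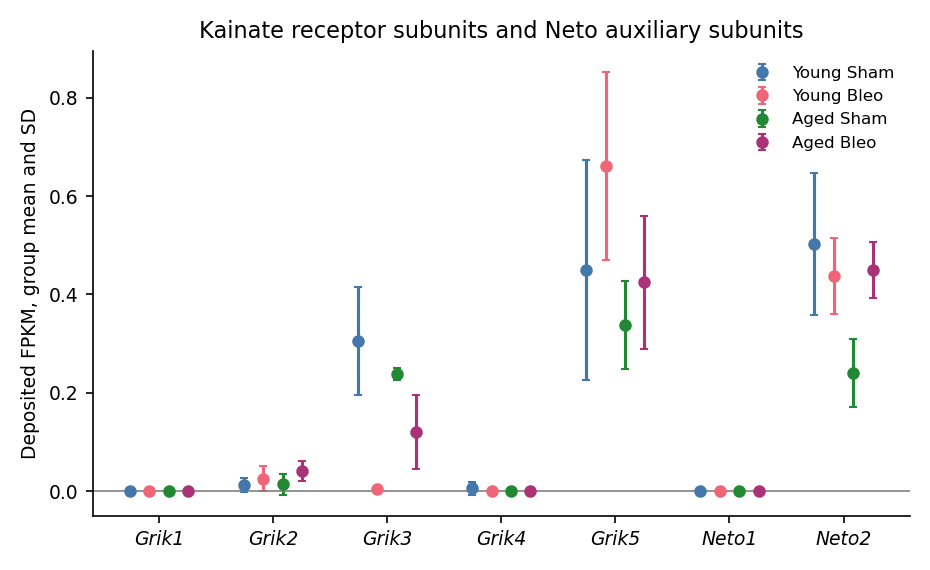
Points are group means of the deposited FPKM for the 5 kainate receptor subunits and the auxiliary subunits Neto1 and Neto2, with the SD over libraries as bars, and colours stand for the 4 groups. Grik3 is at 0.305 in Young Sham and 0.00502 in Young Bleo, whereas Grik5 and Neto2 are present in all groups.

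The wider glutamate list held 50 genes besides Grik3: kainate, AMPA, NMDA and delta receptor subunits, metabotropic receptors, auxiliary proteins, transporters, enzymes and scaffolds. Of these, 12 had 0 counts in all libraries, 25 had a mean normalized count under 10, and 16 had a mean of at least 50. Of the 25 tested, 5 were called in at least 1 of the 5 pairwise comparisons by DESeq2 and 1 by edgeR, where 20.3% of all genes tested were called by DESeq2 and 12.4% by edgeR. In Young Bleo against Young Sham 3 were higher and 1 lower, beside 13.9% of all genes, with a median log2 fold change of -0.01 over the list and 0.01 over all genes. In the contrast of the aged with the young response 0 were called by DESeq2 or by edgeR and 1 had an unadjusted p under 0.05 (DESeq2), beside 0.378% of all genes called by DESeq2.

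Glul, glutamine synthetase, which turns glutamate into glutamine, ran opposite to Grik3. Its normalized counts were 1940 to 2581 in Young Sham and 1784 to 2849 in Aged Sham. In Young Bleo they were 12062, 16868, 19109 and 6603, and in Aged Bleo 11349, 11092, 2967 and 3101 in libraries 1, 2, 3 and 5. The Aged Bleo libraries with the most Grik3, 3 and 5, were those with the least Glul. Glul rose by 2.68 in Young Bleo against Young Sham (SE 0.383, adjusted p = 1.16e-09, DESeq2; edgeR 0.0016). In Aged Bleo it rose by 1.74 against Young Sham (SE 0.383, adjusted p = 0.000235, DESeq2; edgeR 0.0138), beside 9.73% of all genes called. Against Aged Sham the log2 fold change was 1.63 (SE 0.436, adjusted p = 0.00758, DESeq2; edgeR 0.0804), beside 5.85% of all genes called, and this call was lost when Aged Bleo 1, Aged Bleo 2 or Aged Sham 15 was left out (adjusted p of 0.0554 to 0.0812).

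Slc1a1, a plasma membrane glutamate transporter, had normalized counts of 482 to 1095 in Young Sham and 179, 92.5, 23.1 and 329 in Young Bleo. This is a log2 fold change of -2.25 (SE 0.818), with an adjusted p of 0.0405 by DESeq2, and its edgeR adjusted p was 0.0875. This call was lost without Young Bleo 17, 18 or 19 or without Young Sham 22, 23 or 25, with adjusted p-values of 0.0532 to 0.128. Aged Bleo libraries 1 and 2 had 42.3 and 8.84 counts of Slc1a1, and libraries 3 and 5 had 301 and 283.

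Pick1, a scaffold protein that binds glutamate receptor tails, had normalized counts of 178 to 407 in Young Sham and of 401 to 699 in Young Bleo. Its log2 fold change of 0.86 (SE 0.284, adjusted p = 0.0203, DESeq2) had an edgeR adjusted p of 0.0558 and was lost without Young Bleo 17 or 20 or Young Sham 22 or 25 (adjusted p of 0.06 to 0.0885). The fifth gene called was Gria2, an AMPA receptor subunit, at 4.55 (SE 1.66, adjusted p = 0.0411, DESeq2; edgeR 0.107), with a mean of 25.1 normalized counts over all libraries. Neither an AMPA nor an NMDA subunit other than Gria2 was called. Gria1, named here after its values were seen for its r of 0.74 with Grik3, had a log2 difference of -2.89 (SE 1.14, adjusted p = 0.0656, DESeq2).

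The neighbours of Grik3 on the chromosome were examined over 1 Mb on each side. The nearest protein-coding genes are Zc3h12a, an RNase that degrades inflammatory transcripts, 362860 bases before it, and Csf3r, the receptor of granulocyte colony-stimulating factor, 310377 bases after it. Of the 37 protein-coding genes, 35 were tested and 9 were called in a pairwise comparison by DESeq2 (4 by edgeR), beside 20.3% of all genes. Among the 28 of the 37 that average 50 normalized counts or more, r with Grik3 ran from -0.84 for Cdca8 to 0.74 for Ago4. Neighbours thus moved in both directions.

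In Young Bleo against Young Sham, Inpp5b, an inositol phosphatase, stood at -0.77 on the log2 scale (SE 0.277, adjusted p = 0.0368, DESeq2; edgeR 0.0867), lost when any one of Young Bleo 17, 18 and 19 or Young Sham 21, 22, 23 and 25 was left out. Ago4, an Argonaute protein, had -0.94 (SE 0.342, adjusted p = 0.0408, DESeq2; edgeR 0.0935), lost without Young Bleo 17, 18 or 19 or Young Sham 21, 23 or 25. Cdca8, a mitotic chromosomal passenger protein, rose by 1.45 (SE 0.316, adjusted p = 0.000154, DESeq2; edgeR 0.00831).

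In Aged Bleo against Young Sham, Eva1b was lower by 0.95 (SE 0.214, adjusted p = 0.000386, DESeq2; edgeR 0.0134) and Sh3d21 by 1.09 (SE 0.273, adjusted p = 0.00178, DESeq2; edgeR 0.0261). Against Aged Sham the log2 fold change of Eva1b was -0.76 (SE 0.244, adjusted p = 0.0359, DESeq2; edgeR 0.108), lost without Aged Bleo 1, Aged Bleo 2, Aged Sham 13 or Aged Sham 15 (adjusted p of 0.0944 to 0.308). Zc3h12a was higher by 0.69 when Aged Bleo was set against Young Sham (SE 0.233, adjusted p = 0.0316, DESeq2; edgeR 0.0979), lost without Aged Bleo 1 or 2 or Young Sham 22, 23, 24 or 25. Csf3r had at most 99.8 normalized counts in any library and was not called.

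Rspo1, a secreted enhancer of Wnt signalling 481601 bases before Grik3, is named here after its values were seen. Its mean was 9.59 normalized counts in Young Sham and 182 in Aged Sham, against 71.3 in Young Bleo and 85.5 in Aged Bleo. In the contrast of responses its value was -3.91 (SE 1.02, adjusted p = 0.041, DESeq2; edgeR 0.468), the one call there in this region. Ftl2, the pseudogene inside the first intron, had 1202 to 2076 normalized counts in Young Sham and 1400 to 1967 in Young Bleo. It is a copy of a ferritin light chain gene whose reads may be shared with other ferritin loci, so its counts are uncertain.

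**Figure D5:**
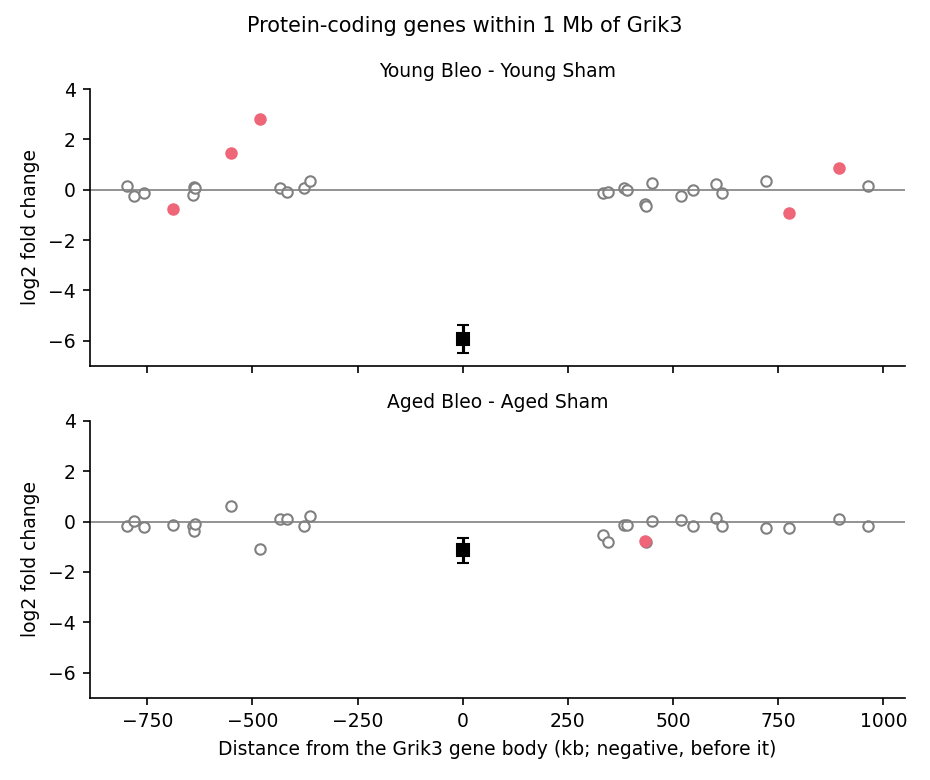
Each circle is a protein-coding gene within 1 Mb of Grik3 that averages 50 normalized counts or more, placed by its distance from the gene body in kb and its DESeq2 log2 fold change, filled where called, and the black square is Grik3 with its SE. In the young comparison Grik3 stands at -5.94 and the called neighbours lie on both sides of 0.

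The genes whose counts follow Grik3 were ranked by Pearson r of log2(normalized count + 1) over the 16 libraries, among the 13773 genes that average 50 normalized counts or more. Of these, 245 had r of at least 0.8 and 159 had r of -0.8 or lower. When the Young Bleo libraries were left out, 124 of the former and 78 of the latter held this level over the remaining 12, where 832 genes in all reached 0.8 in size, against 404 over 16. After the group means were subtracted, 16 genes in all passed 0.8 in size. The Young Bleo deviations of Grik3 rest on 0 to 8 reads per library, so counting noise enters this number. It therefore cannot tell how much of the likeness lies within groups. All points share the 16 libraries and their 4 group means, and Grik3 itself set the ranking.

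Fam71f2 had the highest r with Grik3 over the 16 libraries, 0.94 (0.83 without Young Bleo). Its normalized counts were 411, 470, 303, 419 and 416 in Young Sham, 324, 425 and 453 in Aged Sham, 215, 92.5, 129 and 148 in Young Bleo, and 174, 295, 304 and 299 in Aged Bleo. Young Bleo lies wholly below the sham libraries and below all Aged Bleo libraries but the first. Gm15912, an antisense gene whose reads cannot be told from those of its partner where counting ignores strand, had r of 0.92 (0.90 without Young Bleo). By Spearman's rank coefficient Gm15912 stood above Fam71f2, at 0.96 against 0.87.

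Gm15912 had normalized counts of 181, 247, 234, 330 and 137 in Young Sham and 28.6, 39.5, 45.2 and 59.5 in Young Bleo. In Aged Sham it had 300, 216 and 254, and in Aged Bleo 91.7, 73.7, 196 and 156. As for Grik3, Young Bleo was lowest and Aged Bleo libraries 3 and 5 were above libraries 1 and 2. Sgce, which encodes the membrane protein epsilon-sarcoglycan, had r of 0.91, with 4519 to 6033 normalized counts over the sham libraries, 2366 to 3008 in Young Bleo and 2863 to 4554 in Aged Bleo.

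The other 5 of the 8 genes with the highest r belong to the protocadherin alpha cluster (Pcdha), cell adhesion proteins that share constant 3′ exons. Among the 15 Pcdha genes measured, 14 had r of at least 0.8, and up to 5 of them had identical counts in all libraries, so they count as 1 signal rather than as separate genes. Pcdha4 had normalized counts of 3299 to 5202 in Young Sham, 2901 to 3963 in Aged Sham, 460, 1123, 2674 and 2145 in Aged Bleo and 358, 185, 400 and 1525 in Young Bleo. The order of the Aged Bleo libraries is again that of Grik3, while Young Bleo 20 stands above its group, as it does for the aerocyte markers.

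Next in rank came Ggh, a hydrolase of folate, Cxcl16, a chemokine, Nipa1, a magnesium transporter, Dnah11, an axonemal dynein, Hpgd, which breaks down prostaglandins, and Ptpdc1, with r of 0.89 to 0.90. Hpgd had 48443 to 72618 normalized counts in Young Sham and 13046 to 30518 in Young Bleo. In each of the followers named here the Young Bleo libraries held at least 28.6 normalized counts, against at most 6.93 for Grik3.

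The lowest r belonged to Fscn1 (-0.93), an actin-bundling protein, Rgcc (-0.93), a regulator of the cell cycle, Trim59 (-0.92) and Fxyd6 (-0.92), a regulator of the sodium pump. Rgcc had normalized counts of 1439 to 2198 in Young Sham and 759 to 2281 in Aged Sham. In Young Bleo it had 14596, 33066, 32643 and 12141, and in Aged Bleo 9605, 8395, 1697 and 2009 in libraries 1, 2, 3 and 5. Aged Bleo libraries 3 and 5, those with the most Grik3 of their group, were inside the sham range for Rgcc.

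Fscn1 had normalized counts of 650 to 1085 in Young Sham, 723 to 962 in Aged Sham, 2506 to 3718 in Young Bleo and 1068 to 2281 in Aged Bleo. The means of Trim59 and Fxyd6 were likewise highest in Young Bleo, at 244 to 424 and 4294 to 7646 normalized counts. For Trim59 the bleomycin groups overlap, with 133 to 273 in Aged Bleo. Since these genes were picked for their r with Grik3 over the same groups, their differences between groups are given without a test.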

How the data were processed

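RNA-seq was analysed in 16 libraries of sorted mouse lung ECs, grouped by the library titles. The deposited table gives raw read counts per gene and length-scaled FPKM values that the authors made with MAPRSeq from paired-end reads, aligned to mm10 with STAR (version 2.5.2b per the submitters' processing notes) and counted with featureCounts of Subread. The annotation release, strand setting and treatment of multiply mapped reads are not given in the sources used here. The labels name a SMART-Seq and Nextera kit and the study's methods a TruSeq poly(A) kit.

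Counts were fitted with DESeq2 (1.42.0, R 4.3.3), which the study's methods name, over all 16 libraries with group as the only term. Calls needed an adjusted p (Benjamini-Hochberg, over all genes tested) of 0.05 or less and a log2 fold change of 0.5 or more in size. The methods describe libraries as individual mice. Alternatives were edgeR (4.0.16) quasi-likelihood with TMM, DESeq2 with TMM factors, a filter of 10 counts in 3 libraries, limma (3.58.1) on log2(FPKM + 0.1), and leaving out each library. Fits were tested on simulated data.

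Grik3, the gene lists and the comparisons were chosen with earlier results of these data known. The genes named are Grik3, kainate and Neto subunits, other called glutamate genes averaging 50 normalized counts or more, the nearest neighbours and up to 6 called region genes by mean, and the 8 highest and 4 lowest r. Other genes are named as examples, or after their values were seen. The lists matched 7 of 7 kainate and Neto genes, 44 of 44 other glutamate genes and 69 of 70 markers. The 5 venous and 6 epithelial markers had median r values with Grik3 of -0.14 and 0.09. No protein sequence was used here. Of the neural markers, 2 are not reported here and are left out of their list.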

Additional observations from a re-analysis of the deposited data

Results flagged for a closer look

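In groups of 4 or 5 libraries, 1 library stood apart from the others by Dixon's 95% criterion for 7 of the 72 sets of values examined, and chance alone gives this in about 1 in 20 groups. Aged Bleo 1 had 358 normalized counts of Zc3h12a, whereas the other Aged Bleo libraries had 245 to 249. The same library had 174 normalized counts of Fam71f2 against 295 to 304 in the rest of its group. Young Bleo 20 had 3008 normalized counts of Sgce against 2366 to 2418. Pcdha8, Pcdha9, Pcdha5 and Pcdha4, which share reads, each had 1525 normalized counts in Young Bleo 20 against 185 to 400 in the other Young Bleo libraries, so these 4 are 1 observation. Grik3 itself was not set apart in any single library.

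The response to bleomycin of Rspo1 differed between ages by DESeq2, with a log2 difference of -3.91 (adjusted p = 0.041), but not by edgeR (adjusted p = 0.468).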

How the results depend on the processing

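The 6 Grik3 contrasts kept their direction under edgeR, DESeq2 with TMM factors and limma on log2(FPKM + 0.1). On that last scale all 6 were smaller in size: -1.91 for Young Bleo against Young Sham, 1.00 for Aged Bleo against Young Bleo, 1.22 for the difference of responses, -0.90 for Aged Bleo against Young Sham, -0.69 for Aged Bleo against Aged Sham and -0.22 for Aged Sham against Young Sham. The pseudocount of 0.1 exceeds the FPKM of all Young Bleo libraries. Leaving out each library in turn gave -6.22 to -5.54 for Young Bleo against Young Sham, -1.74 to -1.07 for Aged Bleo against Young Sham, -1.52 to -0.85 for Aged Bleo against Aged Sham, 4.18 to 4.87 for Aged Bleo against Young Bleo and 4.41 to 5.09 for the difference of responses. For Aged Sham against Young Sham it gave -0.36 to 0.01, with the sign turned without Young Sham 24. Counts of called genes were lower with edgeR, at 1 for the glutamate list and 4 for the region, and the cause was not tested. Leaving out libraries gave 2 to 7 and 4 to 10. The number of genes at an r of at least 0.8 in size was 404, from 272 to 651 without single libraries, 16 for deviations from group means, and 832 without the Young Bleo group, which was added after seeing the data. No paired analysis was possible because the replicate numbers do not repeat between groups. Depth limits the Young Bleo level of Grik3, which rests on 20 reads.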
